A study of Mus musculus with 10 samples.

Results

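TGF-beta and BMP signalling was followed in the heart through 43 genes chosen by name: the ligands, their latency proteins, receptors, Smads, intracellular and secreted inhibitors, and transcripts that the pathway is known to induce. All non-control array probes named for these genes were taken, 79 of the 56605 probes on the array. The samples were cardiac tissue from male C57BL/6 mice, 5 with the label HIPK2 knockout and 5 with the label wild type, and every sample was run on its own 1-colour Agilent array. The knockout carries a CRISPR deletion of 56 bases in exon 2 of Hipk2, which encodes a nuclear kinase, and its colony was expanded by crossing with C57BL/6 wild-type mice. The labels name no treatment of the animals, and neither their age nor whether the controls were littermates was given in the sources used here. The labels do not say outright that the 5 samples of a genotype are 5 mice, and the p-values then reflect only how far these samples differ from each other. The deletion was made in embryos and so is not restricted to a cell type, and whole tissue was measured.

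TGF-beta is secreted as a latent complex with a latency peptide and a latent binding protein, and it signals once integrins, thrombospondin or proteases release it. A type 2 receptor then recruits and phosphorylates a type 1 receptor. TGF-beta and activin pass the signal to Smad2 and Smad3 and BMPs pass it to Smad1 and Smad5, and either kind joins Smad4 to enter the nucleus. In the heart TGF-beta is best known for activating fibroblasts and matrix production, and BMPs for valve and vessel development.

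Transcript signal of 4 of these genes was lower in knockout hearts at an adjusted p under 0.05, and that of 0 was higher at this threshold. Fstl1 and Fstl3, secreted glycoproteins of the follistatin family, fell 1.74-fold and 1.76-fold. Inhba, the activin A subunit, fell 2.01-fold, and Skil, the Smad corepressor SnoN, fell 1.49-fold. The test was limma across 20607 genes with Benjamini-Hochberg adjustment and a threshold of 0.05. The 4 genes make up 9.76% of the 41 members tested, where 2.97% of all genes fell, and 0 members rose, where 1.97% of all genes did (4.94% in either direction). At an unadjusted p under 0.05, 15 members lay below 0 (36.6%, against 12.3% of all genes) and 0 above (against 14.8%). Fst and Grem1, both secreted antagonists, were too dim to test: by the scanner software's mark, Fst was well above background on 1 knockout and 3 wild-type arrays, and Grem1 on 0 of either.

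The other 37 members did not pass the threshold, or were not called, and their log2 differences (knockout minus wild type) ran from -1.16 to 0.29. The median difference over the 41 members was -0.22, against 0.03 over all genes, and 30 of the 41 lay below 0 (73.2%, against 45.9% of all genes). The 11 uncalled members with an unadjusted p under 0.05 were Tgfbr1, Tgfbr2, Acvr1, Smad3, Smad7, Tgif1, Ltbp2, Bmp2, Inhbb, Gdf15 and Id1. Each lay below 0, with adjusted p-values between 0.0507 and 0.154. All 5 knockout values were lower than all 5 wild-type values for 6 members (14.6%, against 4.44% of all genes), the 4 called genes, Smad7 and Bmp2. The opposite order was seen for 0 members and for 4.54% of all genes.

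**Figure D1:**
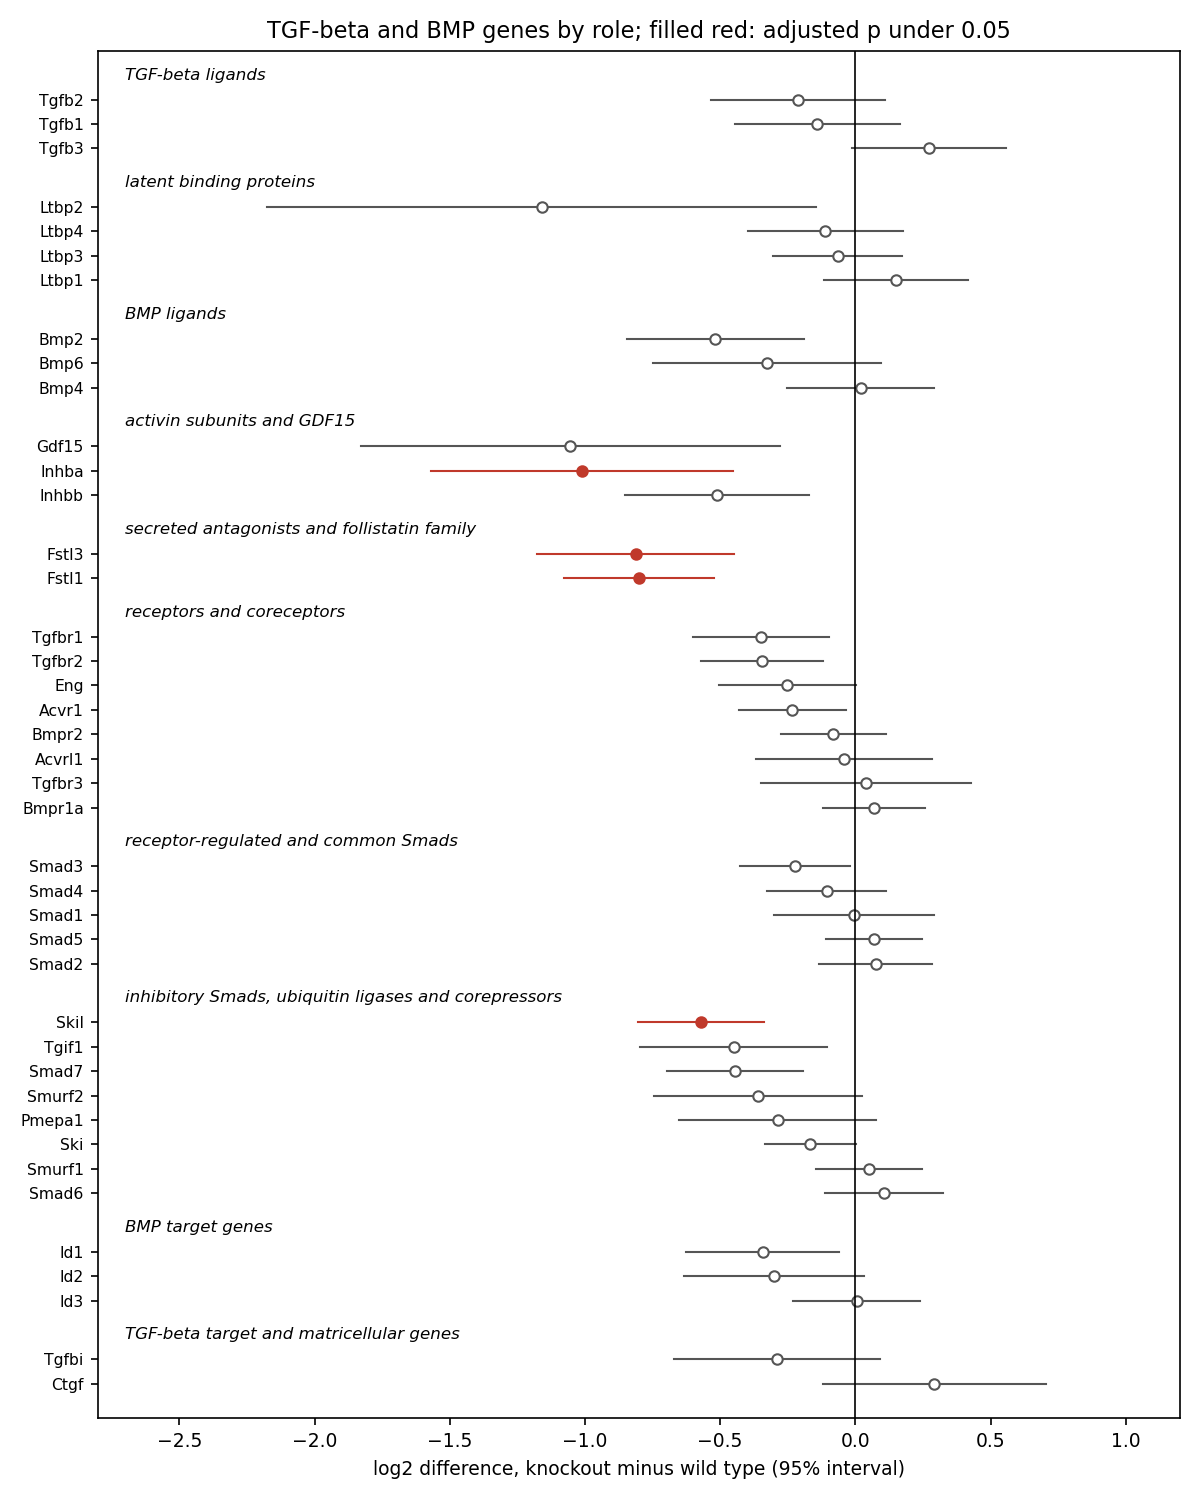
Differences between genotypes (log2, knockout minus wild type) for the 41 tested members, grouped by role; points are the limma estimates, lines their 95% intervals, and filled red points the members with an adjusted p under 0.05. The called genes are Fstl1, Fstl3, Inhba and Skil, and all lie to the left of 0, while the intervals of Smad1, Smad2, Smad4 and Smad5 span it.

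Some properties of the tissue and the arrays differed between genotypes beside these genes. The 75th percentile of spot signal, to which each array was scaled, was 286 to 460 on knockout arrays and 462 to 542 on wild-type arrays (two-sided exact permutation p = 0.00794, 0.0278 after adjustment over 7 array measures). The scanner software marked 45.8% to 58.3% of spots on knockout arrays as well above background and 55.7% to 60.4% on wild-type arrays (exact permutation, adjusted p = 0.0556). The mean of 6 endothelial markers (Pecam1, Cdh5, Kdr, Tie1, Tek and Emcn) was 2.10 to 2.37 in knockout and 2.48 to 2.58 in wild type (exact permutation, adjusted p = 0.0278). All 6 lay below 0 and 2 of them fell in limma, and the log2 of their summed signal was 4.95 to 5.20 in knockout and 5.47 to 5.57 in wild type. The 9 macrophage markers all lay below 0 without a call (log2 summed signal 6.22 to 6.53 against 6.53 to 6.84; exact permutation on their mean, adjusted p = 0.0371). Of 9 fibroblast markers 6 lay below 0 and 1 fell. Their mean was 1.66 to 2.61 in knockout and 2.29 to 2.56 in wild type (exact permutation, adjusted p = 0.102). Their log2 summed signal overlapped, 7.18 to 7.92 against 7.44 to 7.75. The brightest of them, Dcn, averaged 7.16 in knockout and 7.14 in wild type. Markers of heart muscle were abundant in both genotypes, with a mean of 8.16 in knockout and 7.80 in wild type over 9 genes. Only 2 of the 9 lay below 0, and 0 were called. Their median difference was 0.47, and their log2 summed signal was 11.86 to 12.49 in knockout and 11.24 to 11.92 in wild type. The 4 fat markers all lay below 0 (median difference -2.01), with means of -5.04 to -2.96 in knockout and -4.17 to 0.29 in wild type (exact permutation, adjusted p = 0.0556) and log2 summed signals of -2.95 to -0.37 and -1.81 to 2.77. Of 4 atrial markers 3 lay below 0 (median -2.49). The mean of Myl7, Myl4 and Sln was -2.75 to 1.56 in knockout and -3.02 to 4.81 in wild type (exact permutation, adjusted p = 0.127). The log2 summed signal of all 4 was 5.44 to 6.76 against 5.38 to 7.58. Slide 1 held only wild-type replicates 1 and 2, in row 2. On slide 2, row 1 held wild-type replicates 3 to 5 and knockout replicate 1, and row 2 held knockout replicates 2 to 5, so that row and genotype nearly coincide there. The part of these measures in the differences below was not tested beyond the fits that include them. Fewer cells of a type and less RNA per cell cannot be told apart in whole tissue. The Hipk2 transcript itself did not mark the genotype: its brightest probe measured 1.30 to 1.88 in knockout and 1.18 to 1.97 in wild type, and none of its 3 probes, which map between 38648097 and 38768291 of chromosome 6 (mm9), was called. No Hipk2 probe shares a run of more than 6 letters with the deleted bases, so they lie outside the deletion and do not check the labels.

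Values from here on are log2 signal relative to the 75th percentile of the array's spots, so that 0 stands for a spot at that percentile; each probe has its own hybridisation strength, and levels are compared only within a probe. Probe positions are given as in the array files, in mm9 coordinates, and mm9 exon models were not used here.

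Of the TGF-beta ligands, 3 of 3 were tested and 0 were called. Tgfb3, the isoform with the smallest p, was measured at chromosome 12, 87397804 to 87397863. It gave 2.07, 1.92, 2.35, 2.21 and 2.26 in knockout replicates 1 to 5 and 1.58, 1.77, 1.84, 2.06 and 2.20 in wild type. Of the knockout arrays 3 lay above every wild-type array, and the groups overlapped. The difference was 0.27 ± 0.13 (SE), with an interval of -0.01 to 0.56 and an adjusted p of 0.201. Tgfb1, the main isoform of injured tissue, and Tgfb2 had differences of -0.14 and -0.21 (adjusted p = 0.535 and 0.366).

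Latent TGF-beta binding proteins tether the latent complex to the matrix; Ltbp2 is the member of the family that does not bind it and associates with elastic fibres instead. Ltbp2 (chromosome 12, 86124167 to 86124226) had the most negative estimate of all members and a wide spread. Its values were -1.27, -0.67, 0.03, -0.55 and 0.34 in knockout and -0.85, 0.84, 0.52, 1.49 and 1.68 in wild type. Wild-type replicate 1 was as low as the knockouts, and 1 knockout array was lower still. The difference of -1.16 ± 0.46 (SE; interval -2.18 to -0.14) had an adjusted p of 0.139, and it was called only when wild-type replicate 1 was left out. Ltbp1, Ltbp3 and Ltbp4 lay between -0.11 and 0.15.

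BMP ligands bind type 1 receptors together with Bmpr2. Bmp2 (chromosome 2, 133388260 to 133388319) gave -2.85, -3.01, -2.90, -2.71 and -2.65 in knockout and -2.58, -1.86, -2.41, -2.58 and -2.09 in wild type. The groups did not overlap, although knockout replicate 5 and wild-type replicate 1 were close. The difference was -0.52 ± 0.15 (SE) with an adjusted p of 0.0674, short of the threshold. Bmp6, known from liver endothelium as a regulator of iron, and Bmp4 had differences of -0.33 and 0.02 (adjusted p = 0.291 and 0.935).

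Activin subunits and GDF15 all lay below 0, and 1 of the 3 fell. Inhba dimerises to activin A, a ligand that signals through Smad2 and Smad3. Its probe (chromosome 13, 16118634 to 16118693) gave -1.59, -2.09, -1.68, -2.04 and -1.14 in knockout and -1.13, -0.84, -1.13, 0.06 and -0.45 in wild type. Knockout replicate 5 came within 0.012 of the lowest wild-type array, replicate 3. The difference was -1.01 ± 0.25 (SE; interval -1.57 to -0.45; adjusted p = 0.0474). The call was lost when any of 7 arrays was left out, knockout replicates 1 to 4 and wild-type replicates 2, 4 and 5, with estimates from -0.82 to -1.05 and adjusted p-values up to 0.098.

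Inhbb, the activin B subunit, had a difference of -0.51 ± 0.16 (SE; adjusted p = 0.0764). Gdf15, a stress-induced cytokine of the family that acts on a receptor in the hindbrain, gave -1.78, -1.85, -1.39, -2.29 and -1.57 in knockout and -1.68, -1.43, -0.70, 0.17 and 0.03 in wild type. Wild-type replicates 1 and 2, the arrays of slide 1, lay among the knockouts, and wild-type replicates 3 to 5 lay above them. The difference was -1.06 ± 0.35 (SE; adjusted p = 0.0964), and Gdf15 was called when slide was a block or when slide 1 was left out.

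Both secreted antagonists that could be tested fell (2 of 2). Fstl1, a glycoprotein released by the epicardium and by heart muscle, binds BMP ligands and their receptors. Its brightest probe (chromosome 16, 37836492 to 37836551) gave 2.70, 2.66, 2.68, 2.41 and 2.97 in knockout and 3.18, 3.58, 3.39, 3.71 and 3.56 in wild type. The highest knockout array, replicate 5, lay 0.207 below the lowest wild-type array, replicate 1. The difference was -0.80 ± 0.13 (SE; interval -1.08 to -0.52; adjusted p = 0.0127). Fstl1 was called in all 10 fits that left out 1 array, with adjusted p-values of 0.0131 to 0.0394.

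Fstl1 has 3 probes, and they did not move together. A second probe on the same transcript (37835593 to 37835652) gave -0.74 ± 0.15 (SE; adjusted p = 0.028 over all kept probes) with no overlap between groups. The remaining probe, at 37799498 to 37799557, was designed on another transcript model of the gene, ENSMUST00000152579. It gave 0.08 ± 0.10 (SE; adjusted p = 0.613), with knockout arrays at -2.48 to -2.12 and wild-type arrays at -2.44 to -2.17. With the kept probes averaged, the Fstl1 difference shrank to -0.49 and was still called.

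Fstl3 binds activins and related ligands with high affinity and keeps them from their receptors. Its probe (chromosome 10, 79244916 to 79244975) gave 0.24, 0.27, 0.53, 0.55 and 0.48 in knockout and 0.76, 1.36, 0.94, 1.67 and 1.40 in wild type. The knockout arrays lay close together (SD 0.15) and below all wild-type arrays, which spread more widely (SD 0.37). The difference was -0.81 ± 0.17 (SE; interval -1.18 to -0.45; adjusted p = 0.0267). Leaving out knockout replicate 1 or 2, or wild-type replicate 2, 4 or 5, ended the call, with adjusted p-values up to 0.0631.

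**Figure D2:**
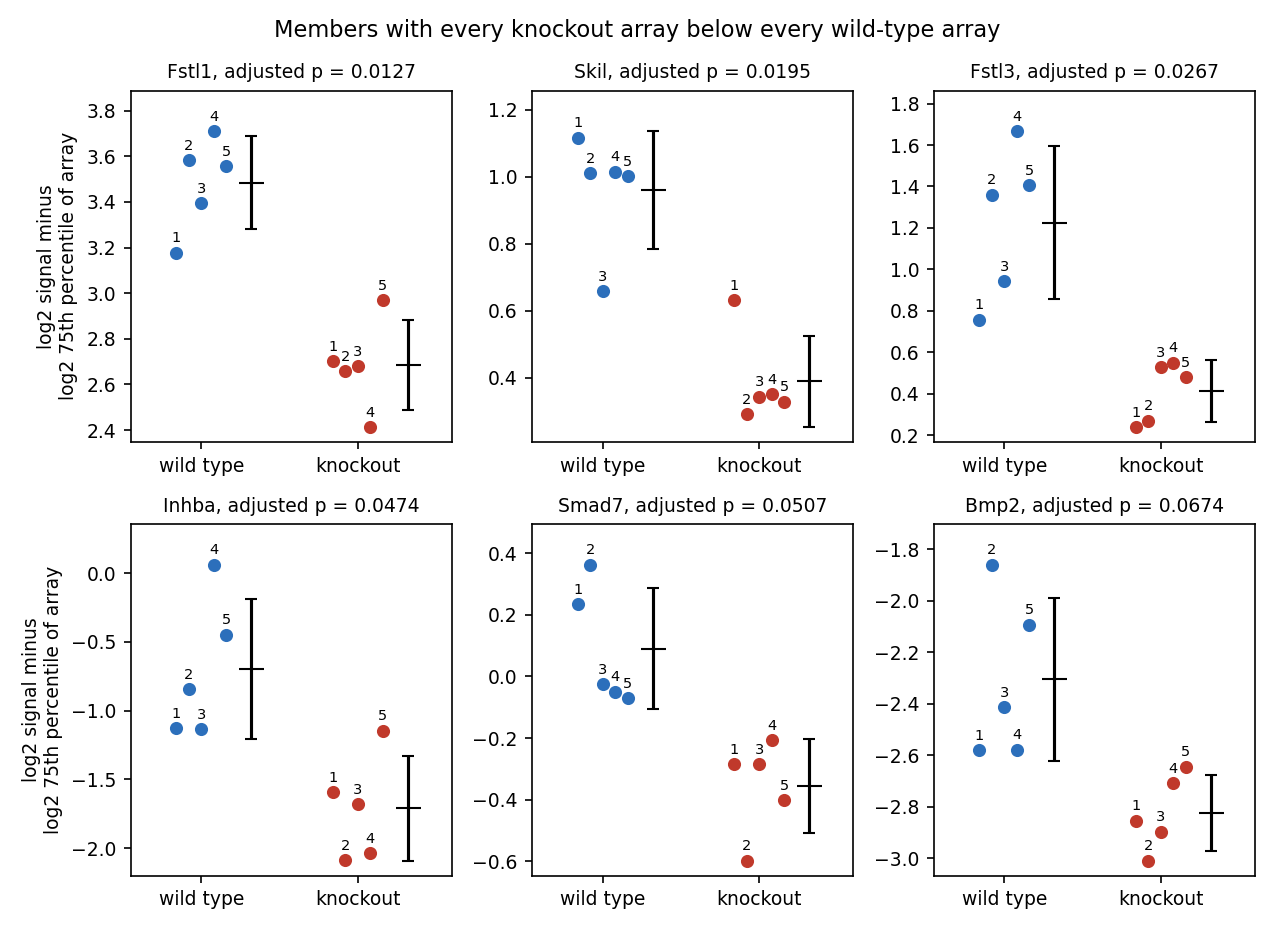
Array values (log2 signal relative to the 75th percentile of the array) of the 6 members whose knockout arrays all lie below their wild-type arrays; numbers mark the replicate, and bars give the mean and SD of 5 arrays. Smad7 (adjusted p = 0.0507) and Bmp2 (0.0674) show the same separation as the called genes with smaller differences, and the vertical scale differs between panels.

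The 250 bases before the annotated start of the called genes are shown because Smad complexes are known to bind the letters CAGAC, and BMP-responsive Smads GC-rich letters such as GGCGCC. The sequences are from RefSeq on GRCm38.p6, the plus strand for all 3 genes, with CAGAC or its reverse complement GTCTG in capitals; Skil was not matched.
Fstl1, chr16:37776805-37777054: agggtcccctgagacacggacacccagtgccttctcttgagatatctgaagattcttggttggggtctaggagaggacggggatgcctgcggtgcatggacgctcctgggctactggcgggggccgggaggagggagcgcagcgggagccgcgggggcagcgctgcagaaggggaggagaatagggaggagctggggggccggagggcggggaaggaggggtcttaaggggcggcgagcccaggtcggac
Fstl3, chr10:79777024-79777273: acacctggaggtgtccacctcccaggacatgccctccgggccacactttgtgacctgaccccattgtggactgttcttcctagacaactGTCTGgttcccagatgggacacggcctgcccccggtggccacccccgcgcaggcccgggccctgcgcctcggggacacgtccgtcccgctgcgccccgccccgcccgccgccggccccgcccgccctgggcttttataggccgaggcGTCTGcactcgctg
Inhba, chr13:16011601-16011850: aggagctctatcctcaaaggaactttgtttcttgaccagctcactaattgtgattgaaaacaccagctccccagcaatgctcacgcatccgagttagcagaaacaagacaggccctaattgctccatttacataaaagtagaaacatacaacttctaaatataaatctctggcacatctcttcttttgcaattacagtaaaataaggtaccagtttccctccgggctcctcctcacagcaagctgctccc
The Fstl3 window holds the element 2 times, beginning 161 and 14 bases before the start, and the Fstl1 and Inhba windows hold it 0 times. On either strand CAGAC occurs in 42.1% of the windows of 27025 genes, so that a match by itself is common, and in 15 of the 31 members that were matched. GGCGCC occurs in 9.54% of all windows and in 8 member windows, none of them of a called gene. The longer TGGCGCC, which contains it, occurs in 3.21% of all windows and in those of Ski and Smurf2. The windows also differ in base composition, with 68.0% G and C in Fstl1, 71.2% in Fstl3 and 43.2% in Inhba, against a median of 52.0%.

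None of the 8 receptors and coreceptors tested was called by its brightest probe, and 6 of them lay below 0. Tgfbr2, the type 2 receptor of TGF-beta, had the smallest p (its position in the array file covers only 10 bases, 115996798 to 115996807 of chromosome 9). It gave 2.56, 2.60, 2.46, 2.56 and 2.72 in knockout and 3.00, 3.19, 2.70, 2.96 and 2.78 in wild type. Knockout replicate 5 alone overlapped the wild-type range. The difference was -0.35 ± 0.10 (SE; adjusted p = 0.073). Its partner Tgfbr1 had the same size of difference, -0.35 ± 0.11 (adjusted p = 0.0909). Acvr1, a type 1 receptor of BMPs, had -0.23 ± 0.09 (adjusted p = 0.131). The coreceptor Tgfbr3 and the BMP receptors Bmpr1a, Bmpr2 and Acvrl1 lay between -0.08 and 0.07.

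Eng and Acvrl1, a coreceptor and a type 1 receptor of endothelial cells, gave unequal values in their probes. The brightest Eng probe (chromosome 2, 32537268 to 32537327) had a difference of -0.25 ± 0.12 (SE; adjusted p = 0.186). The other probe, at 32505828 to 32505887 and designed on transcript ENSMUST00000139770, measured -3.06 to -2.54 in knockout and -2.14 to -1.74 in wild type, without overlap. Its difference was -0.73 ± 0.13 (SE; adjusted p = 0.0194 over probes). The second Acvrl1 probe gave -0.41 ± 0.11 (adjusted p = 0.0557), also without overlap, where the brightest gave -0.04 ± 0.15. Both genes mark endothelium, whose other markers were lower on the same knockout arrays, as given above. The fit with the endothelial score held only the brightest probe of each gene. The part of those markers in the values of the second probes was not tested.

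Of the Smads that carry the signal, Smad1, Smad2, Smad3, Smad4 and Smad5, 0 of 5 were called, and their median difference was 0.00 with a range of -0.22 to 0.08. Smad3, the main Smad of the fibroblast response, gave 0.92, 0.87, 0.72, 0.95 and 1.098 in knockout and 1.26, 1.24, 1.00, 1.08 and 1.08 in wild type. Of its knockout arrays 4 lay below all wild-type arrays and replicate 5 lay among them. The difference was -0.22 ± 0.09 (SE; adjusted p = 0.154). The 95% intervals of Smad1, Smad2, Smad4 and Smad5 reached no further than 0.33 on either side of 0.

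Inhibitors inside the cell include Smad6 and Smad7, the ubiquitin ligases Smurf1 and Smurf2, the corepressors Ski, Skil and Tgif1, and Pmepa1, which sequesters receptor-regulated Smads. Of these 8, 1 fell and 6 lay below 0, and several are themselves induced by TGF-beta. Skil (chromosome 3, 31021022 to 31021081) gave 0.63, 0.29, 0.34, 0.35 and 0.33 in knockout and 1.12, 1.01, 0.66, 1.01 and 1.00 in wild type. Knockout replicates 2 to 5 lay between 0.29 and 0.35 and wild-type replicates other than 3 between 1.00 and 1.12. Knockout replicate 1, the only knockout array in row 1, and wild-type replicate 3 lay between them, 0.028 apart. The difference was -0.57 ± 0.11 (SE; interval -0.80 to -0.34; adjusted p = 0.0195). The call was lost without wild-type replicate 4 or 5 (adjusted p up to 0.0526).

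The other Skil probes lay in dim signal. At 30995904 to 30995963 the probe passed the threshold over probes (adjusted p = 0.0367) with measured means of -5.03 in knockout and -4.36 in wild type, but the software marked it well above background on 0 knockout arrays, so no fold is given. At 30996695 to 30996754 the difference was -0.28 ± 0.17 (SE; adjusted p = 0.313).

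Smad7, the inhibitory Smad that blocks type 1 receptors and is a standard early target of TGF-beta, missed the threshold narrowly. It gave -0.28, -0.60, -0.28, -0.21 and -0.40 in knockout and 0.23, 0.36, -0.03, -0.05 and -0.07 in wild type. The groups did not overlap, and the wild-type arrays of slide 1, replicates 1 and 2, were the highest. The difference was -0.45 ± 0.11 (SE; adjusted p = 0.0507), and its second probe gave -0.17 ± 0.13 (adjusted p = 0.428). Smad6, the inhibitory Smad of the BMP branch, had a difference of 0.11 ± 0.10 (adjusted p = 0.515). Smad7 was called in 6 of 18 settings other than leaving out an array, and in 0 of the 10 that left one out.

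Smurf2 fell by its dimmer probe and not by the one that represents it. The dimmer probe (chromosome 11, 106683108 to 106683167) measured -1.71 to -1.50 in knockout and -1.25 to -1.10 in wild type, a difference of -0.46 ± 0.08 (SE; adjusted p = 0.017 over probes). The brighter probe gave -0.36 ± 0.18 (adjusted p = 0.21), with knockout replicate 1 at 0.24 and the other knockout arrays at -0.57 to -0.34. Tgif1, Pmepa1 and Ski had differences of -0.45, -0.29 and -0.17 (adjusted p = 0.107, 0.282 and 0.192), and Smurf1 of 0.05 (0.74).

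**Figure D3:**
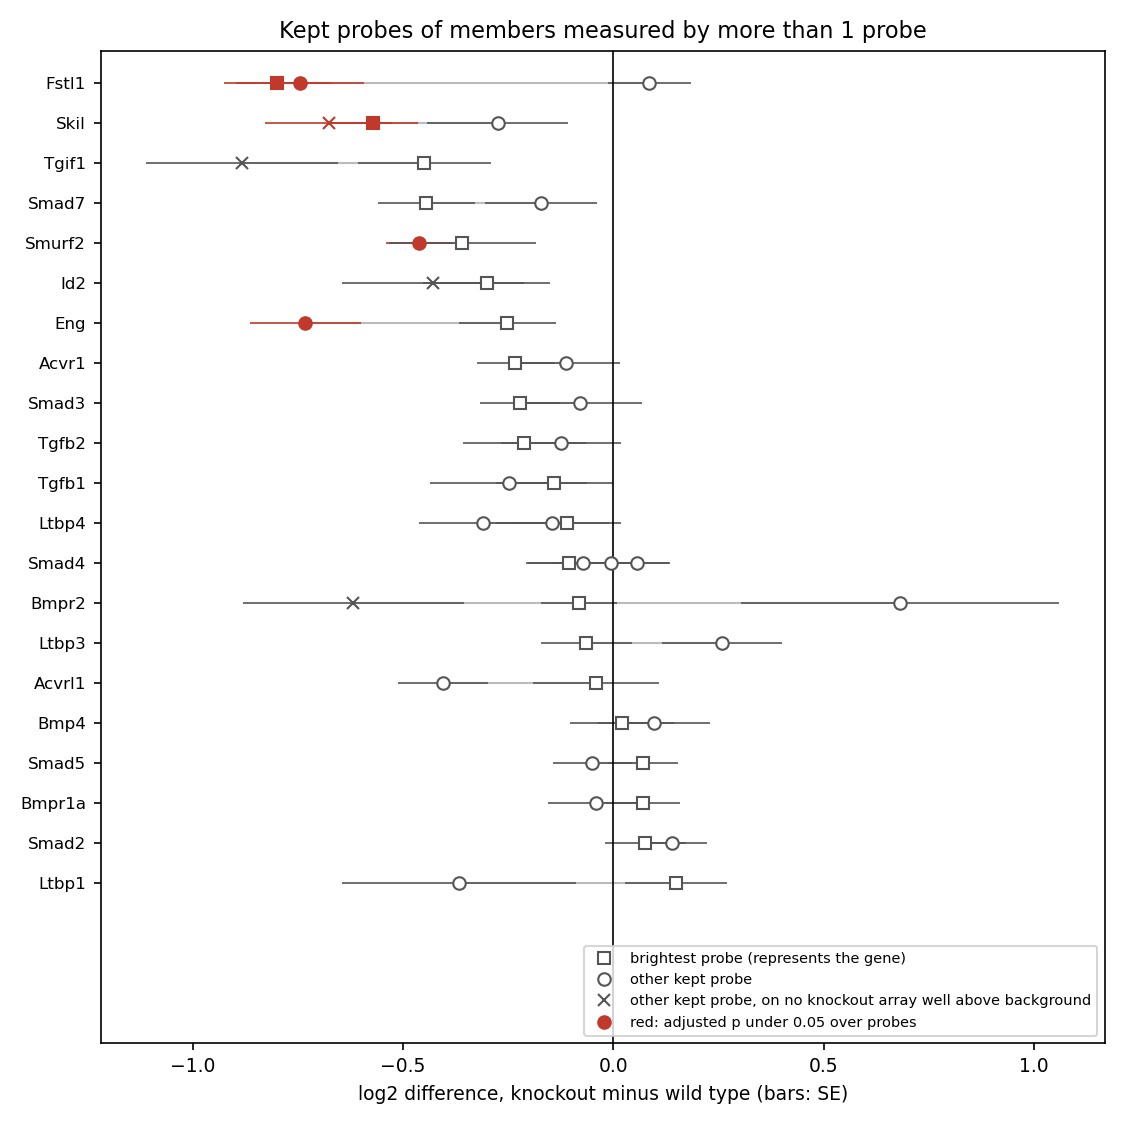
Differences (log2, knockout minus wild type, bars SE) of each kept probe of the 21 members that have more than 1; squares are the brightest probes, red marks an adjusted p under 0.05 over 30692 probes, and crosses are probes on no knockout array well above background. Probes of Fstl1, Eng, Bmpr2 and Acvrl1 lie far apart, and 7 of the 21 members have probes on both sides of 0.

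Over all 68 kept probes of the members, 8 fell (2.76% of all kept probes did) and 0 rose (1.69% did). These 8 were 2 of Fstl1, 2 of Skil, and 1 each of Fstl3, Inhba, Eng and Smurf2. The Skil probe at 30995904 to 30995963 is among them. It was well above background on 0 knockout arrays, so that its fall was not measured. Probes of Bmpr2, the type 2 BMP receptor, also differed. The brightest gave -0.08 ± 0.09 and another 0.68 ± 0.38. The remaining probe, on no knockout array well above background, had a limma p of 0.0387 unadjusted and 0.169 adjusted over probes. None of these Bmpr2 probes was called.

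BMP target genes Id1, Id2 and Id3 encode inhibitors of bHLH transcription factors that respond directly to Smad1 and Smad5, and 0 of 3 were called. Id1 (chromosome 2, 152563083 to 152563142) gave 2.81, 2.81, 2.82, 3.31 and 2.84 in knockout and 3.32, 3.38, 2.95, 3.46 and 3.20 in wild type. Of its knockout arrays 4 lay at 2.81 to 2.84, below all wild-type arrays, and replicate 4 lay among the wild types. The difference was -0.34 ± 0.13 (SE; adjusted p = 0.124). Id2 and Id3 had differences of -0.30 and 0.01 (adjusted p = 0.221 and 0.98).

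The matrix-related target genes Tgfbi and Ctgf had differences of opposite sign, and 0 of 2 were called. Tgfbi, a secreted matrix protein, gave 2.04, 2.38, 2.05, 1.83 and 2.83 in knockout and 2.39, 2.77, 2.45, 2.46 and 2.52 in wild type. Knockout replicate 5 was the highest of the 10 arrays and the other knockouts the lowest. The difference was -0.29 ± 0.17 (SE; adjusted p = 0.299). Ctgf, a matricellular protein also induced by YAP, had a difference of 0.29 ± 0.19 (adjusted p = 0.334), the most positive estimate of the 41.

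**Figure D4:**
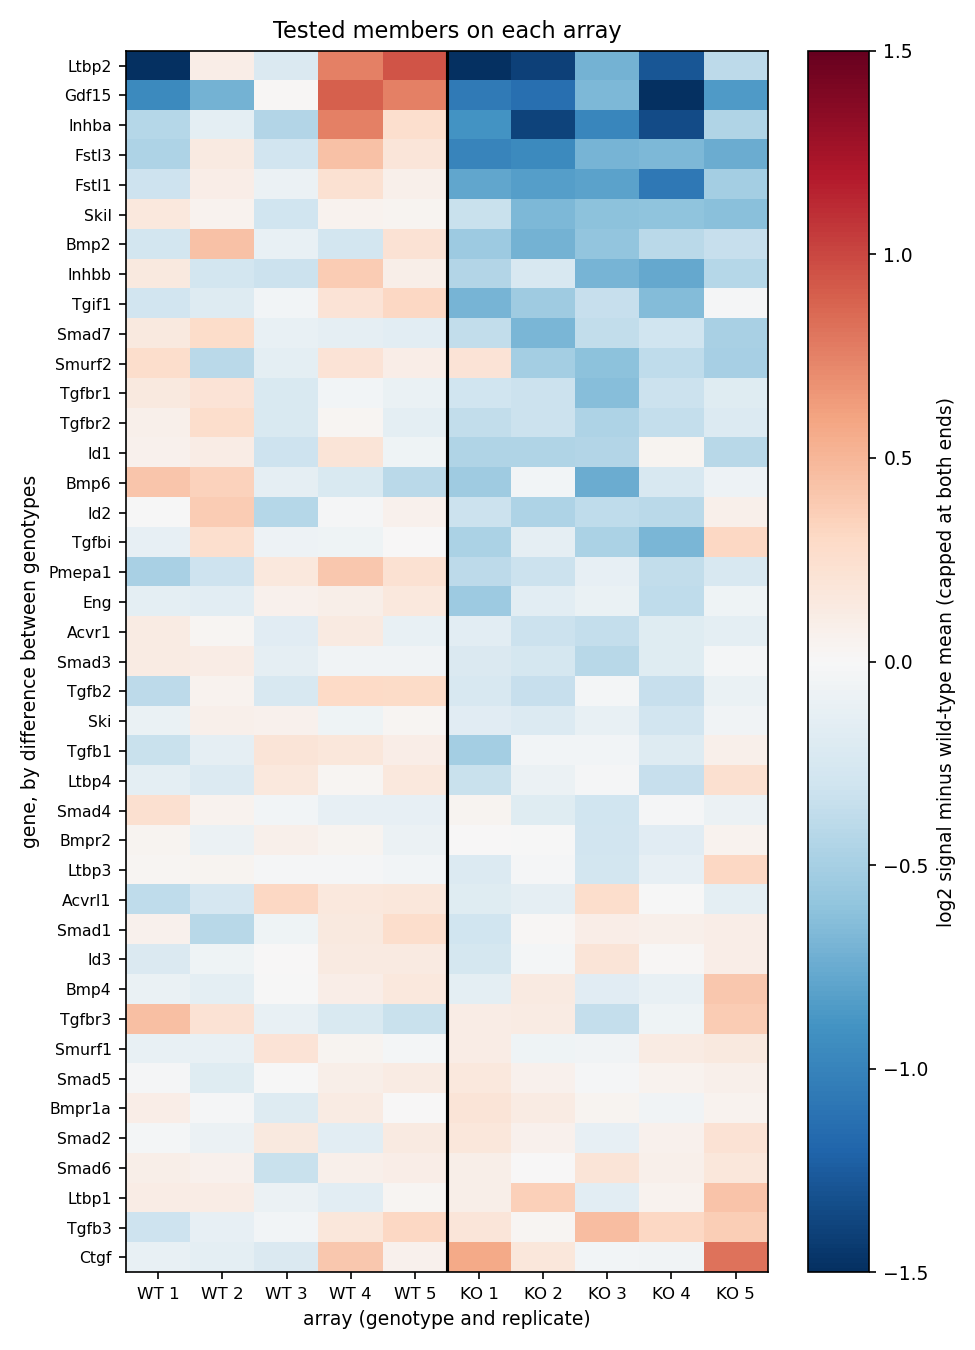
Log2 signal of the 41 tested members on each array, minus the mean of that gene's 5 wild-type arrays, with genes ordered by their difference; wild-type columns therefore average 0 in each row. The median over members was -0.30 to -0.06 on knockout arrays and -0.09 to 0.09 on wild-type arrays, so that knockout replicate 5 overlapped the wild types.

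The pattern also varied among samples of a genotype. The median over members, taken relative to the wild-type mean of each gene, was lowest on knockout replicates 1 and 3 (-0.29 and -0.30) and highest among knockouts on replicate 5 (-0.06). Replicate 5 also had the highest macrophage (1.97), fibroblast (2.61) and endothelial (2.37) marker means of the knockout arrays. These means were 1.43, 1.75 and 2.10 on knockout replicate 1. They were higher, 1.76, 2.14 and 2.23, on knockout replicate 3, although its median over members was the lowest. A link between marker means and members across arrays was not tested. Among the wild types the median over members ran from -0.09 on replicate 3 to 0.09 on replicate 4.

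Other genes of the pathway were taken from lists written by role, with earlier results of these data known. Of 125 genes listed, 103 were tested, 12 fell and 1 rose, with a median difference of -0.07. Of all genes 2.97% fell and 1.97% rose, with a median of 0.03. The 12 include Wfikkn1, which was well above background on 0 knockout arrays, so that its fall was not measured. Ligands outside the members (13 tested) gave 0 calls, and the smallest p was that of the oocyte ligand Gdf9 (-0.45 ± 0.12; adjusted p = 0.0605). Receptors and coreceptors outside the members (11 tested) also gave 0 calls, the smallest p being that of the endothelial receptor regulator Tmem100 (-0.56 ± 0.23; adjusted p = 0.152). At an unadjusted p under 0.05, 28 of the 103 lay below 0 and 6 above, where 12.3% and 14.8% of all genes did. Of the ligands these were 2 and 2, and of the receptors 1 and 0. The 28 include genes that passed the filter only through wild type. Itgb8 was well above background on 1 knockout and 4 wild-type arrays, and Bmp5 on 2 and 5. With probes well above background on all 10 arrays, 86 genes were tested. Of these, 30 had an unadjusted p under 0.05 in limma, and 12 fell and 1 rose.

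Genes of TGF-beta latency and activation fell in 4 of 14 cases, and 0 rose. Thbs1, thrombospondin 1, which opens the latent complex, gave -2.39 to -0.91 in knockout and -1.21 to 0.46 in wild type (-1.56 ± 0.34; adjusted p = 0.0334), and knockout replicate 5 overlapped. Fbn1, the fibrillin that anchors latent binding proteins, gave 0.73 to 1.71 against 2.08 to 2.36 without overlap (-0.88 ± 0.18; adjusted p = 0.0271). Itgb3, an integrin chain that binds the latency peptide, gave -1.80 to -1.29 against -1.06 to -0.60, also without overlap (-0.78 ± 0.13; adjusted p = 0.0152). The remaining one was Lrrc32, the cell-surface anchor GARP.

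Of the extracellular antagonists outside the members, 2 of 12 passed the threshold below 0. Nbl1, which binds BMPs, gave 2.36 to 2.74 in knockout and 2.82 to 3.24 in wild type (-0.54 ± 0.11; adjusted p = 0.0257). Wfikkn1 passed the threshold (adjusted p = 0.0329) but was well above background on 0 knockout arrays, and with another background correction its estimate turned positive. Of 27 further intracellular regulators 1 rose and 1 fell. Usp11, a deubiquitinase of type 1 receptors, rose: it lay between -1.14 and -0.75 in wild type and between -0.57 and -0.15 in knockout (0.59 ± 0.11; adjusted p = 0.0174). Tgfb1i1, the focal adhesion protein Hic-5, fell (-0.40 ± 0.09; adjusted p = 0.0379).

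Further target genes fell in 5 of 26 cases, and 0 rose; their median difference was -0.36. Junb, an immediate early transcription factor, had the smallest p: it lay between 2.33 and 2.95 in wild type and between 1.50 and 1.95 in knockout (-0.94 ± 0.13; adjusted p = 0.00904). Timp1, an inhibitor of matrix proteases, fell 3.11-fold, with 1.30 to 2.67 in wild type and -0.34 to 0.60 in knockout (adjusted p = 0.0152). Lox, which crosslinks collagen, fell 1.84-fold (adjusted p = 0.0147). The others were Cdkn1a and Postn, the latter also one of the fibroblast markers. Many of these genes respond to other signals as well.

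The count of 4 depended on the processing. With normexp background correction 9 members fell, the 4 called genes with Tgfbr1, Tgfbr2, Smad7, Inhbb and Id1, where 4.26% of all genes fell. Without the filter on dim probes 1 member fell, Fstl1, where 0.217% of the 37325 genes tested fell. Leaving out 1 array gave between 1 and 5, where 0.81% to 2.88% of all genes fell. Array and tissue measures were also put into the fit. With slide as a block 6 members fell, the 4 called genes, Gdf15 and Pmepa1 (2.56% of all genes fell), and within slide 2 alone 4 did, Fstl1, Fstl3, Gdf15 and Pmepa1 (1.54% of all genes). Adding the atrial, the macrophage, the endothelial or the fibroblast marker mean as a covariate left 0 members called in limma, and it left 57, 6, 0 and 104 of all genes called. At an unadjusted p under 0.05, 10, 7, 4 and 9 members then lay below 0, and 1, 0, 0 and 1 above. With slide and row of the array as terms 0 members and 0 of all 20607 genes were called. Of the members 10 then lay below 0 at an unadjusted p under 0.05 in limma, and Skil moved to -0.26. The differences kept their sign in all of these fits for the 4 called genes. With the endothelial mean, which separated the genotypes completely, Fstl1 was -0.51 ± 0.27 (SE; adjusted p = 0.58), Fstl3 -0.90 ± 0.39 (0.488), Inhba -0.72 ± 0.59 (0.711) and Skil -0.86 ± 0.22 (0.292), and the median over members moved from -0.22 to -0.02.

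**Figure D5:**
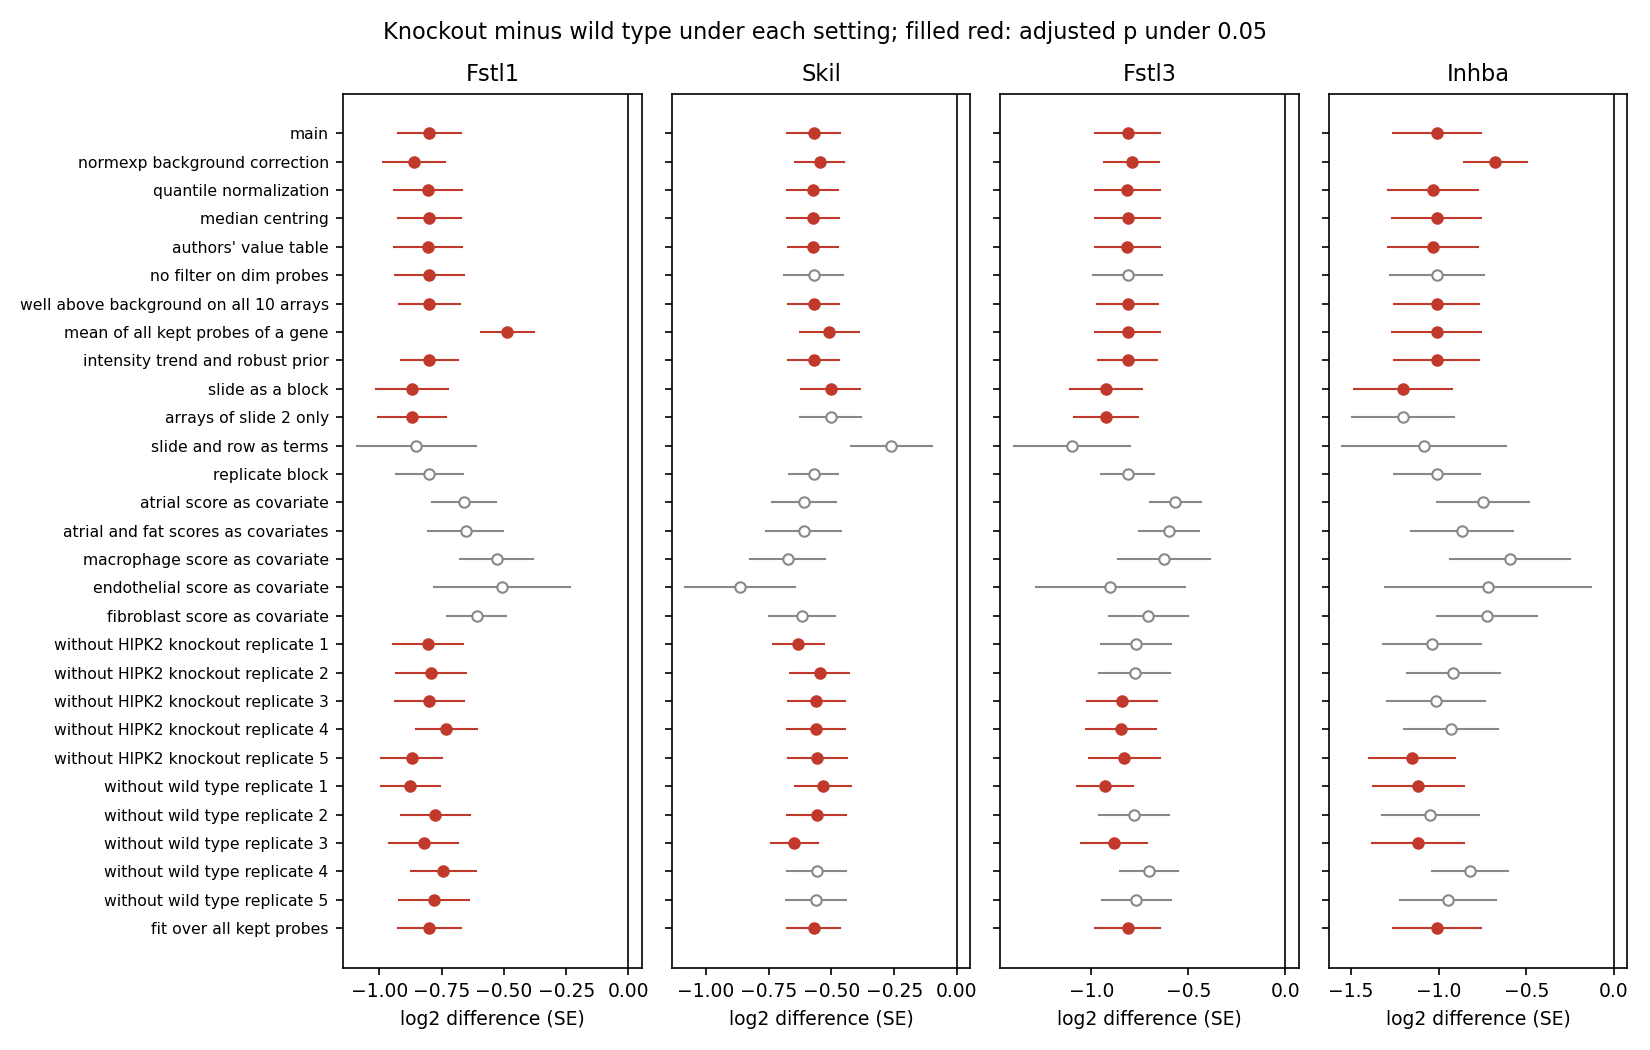
Differences (log2, knockout minus wild type, bars SE) of the 4 called members under each setting, from the reported fit at the top to the fits leaving out 1 array; filled red points have an adjusted p under 0.05. All estimates lie below 0, and the 4 genes lose their calls together with marker means as covariates, with slide and row as terms, and with the replicate number as a block.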

How the data were processed

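The deposited scanner files give, for each spot, a linear intensity that per the file headers had its background subtracted and was spatially detrended; the software was Agilent Feature Extraction 10.7.1.1, per the submitters' processing notes. The authors also deposited a log2 value table of the same arrays, used only as an alternative; how it was made was not given in the sources used here. From the processed intensity, log2 minus the log2 of the array's 75th percentile over 59305 non-control spots was computed, outlier spots were dropped and spots of a probe averaged. Probes had to be well above background on 4 or more arrays of a genotype (30692 probes), and the brightest represented its gene. Genotypes were compared with limma 3.58.1 in R 4.3.3 (lmFit, eBayes, no covariate), with Benjamini-Hochberg adjustment over 20607 genes or, for further probes, over all kept probes. Array measures were compared by exact permutation over 252 arrangements, for which 0.00794 is the smallest p. The fit was tested on simulated data with independent normal noise. That simulation held no slide, row or tissue differences, so it cannot show how the fit behaves under them. No spot was saturated, and the number of arrays limits the precision. Every member is named by role; array values are given for called members and for the smallest p in each other role, and from the other pathway lists up to 3 called genes or the smallest p. Array values of Smad7 and Gdf15 and the further probes described were singled out after their values were seen. Members, lists and alternatives were chosen with earlier results of these data known, so they are not independent of them. Alternatives covered background correction, normalization, filters, probe choice, prior, slide, row, marker means, the replicate number and leaving out each array.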

Additional observations from a re-analysis of the deposited data

Results flagged for a closer look

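Dixon's test at its 95% level was applied to the 5 arrays of each genotype for the named genes, 108 groups in all, and marked 8, where chance marks about 1 in 20. Of these, 2 touch a called gene. Skil on knockout replicate 1 was 0.63, where the other knockout arrays lay between 0.29 and 0.35. Skil on wild-type replicate 3 was 0.66, where the other wild-type arrays lay between 1.00 and 1.12. Both approach the other genotype.

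Knockout replicate 1 also stood apart for Smad1, at 1.41 against 1.73 to 1.81 on the other knockout arrays. For Smurf2 it was 0.24 against -0.57 to -0.34. Wild-type replicate 3 stood apart for Smad6, at -0.03 against 0.37 to 0.40. Id1 on knockout replicate 4 was 3.30 against 2.81 to 2.84, and Id2 on knockout replicate 5 was -0.31 against -0.84 to -0.71. Tmem100 on knockout replicate 3 was -0.02 against 0.56 to 0.74.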

How the results depend on the processing

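Across 28 alternatives the 4 called members kept the sign of their difference, while 19 members changed sign at least once. The count of 4 fallen members became 9 with normexp background correction, where 28.2% of all calls fell against 60.2% in the reported fit. Without the filter on dim probes it became 1, where 0.217% of the 37325 genes tested fell. It was 0 with slide and row as terms and with atrial, atrial and fat, macrophage, endothelial or fibroblast means as covariates; the fits with endothelial and fibroblast means were added after seeing the data. Of all genes 0, 57, 8, 6, 0 and 104 were called, in the order of these settings. At an unadjusted p under 0.05, limma then gave 10, 10, 9, 7, 4 and 9 members below 0. Leaving out 1 array gave 1 to 5 fallen members, where 0.81% to 2.88% of all genes fell, against 2.97% in the reported fit. It gave 2 when knockout 1, knockout 2 or wild type 2 was missing (1.35%, 1.26% and 1.25% of all genes). It gave 1 when wild type 4 or 5 was missing (0.956% and 0.81%).

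Of the other pathway lists 13 genes were called in the reported fit, where 1017 of all genes were. They became 24 with normexp, 17 fallen and 7 risen, where 3111 of all genes were called. There were 2 without the filter (173 of all genes), 7 within slide 2 (458) and 2 with the fibroblast mean (104). With slide and row, atrial, atrial and fat, macrophage or endothelial means there were 0 (23, 25, 18, 20 and 12 at an unadjusted p under 0.05 in limma). Leaving out 1 array gave 4 to 17, where 282 to 940 of all genes were called. The median member difference of -0.22 moved to -0.082 with the macrophage, -0.021 with the endothelial and -0.099 with the fibroblast mean, and stayed between -0.26 and -0.18 when 1 array was left out. Wfikkn1 turned to 0.15 with normexp. The cause of these changes was not tested.

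The labels do not say whether the replicate numbers pair the samples. Deviations of same-numbered arrays correlated at -0.11 to 0.05, which shows no pairing but cannot exclude one. With the replicate block 0 members (16 below 0 and 1 above at an unadjusted p under 0.05) and 2 other pathway genes were called in limma, against 164 of all genes.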
